A study of Homo sapiens with 6 samples.

Results

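Annotated cassette exons of 31 to 500 nt whose length is a multiple of 3 were followed in K562 cells with wild-type or S34F-mutant U2AF1. A cassette exon is one that is either spliced into the mRNA or skipped, and where it lies in coding sequence a length divisible by 3 lets both forms keep the same reading frame downstream. An exon entered when the junctions on both of its sides and a junction that skips it were all annotated, when each of these 3 junctions had at least 10 unique reads over the 6 libraries, and when inclusion plus skipping reached 20 reads in every library. The exons were thus chosen by junction read counts of these same libraries. The rule used no difference between the genotypes, but the 10 pooled reads of a junction could come from 1 genotype alone. Some exons with a form almost absent in wild type entered in this way. This left 3335 exons of the 17561 cassette exons of at most 500 nt that passed the same read minimums. Because 123 of the exons were skipped by more than 1 pair of outer splice sites, they made 3467 combinations of an exon with its outer sites, of 19137 in all, and counts below are of combinations unless exons are named.

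K562 is an established leukaemia cell line with erythroid features, grown here as 1 line in both groups. The 3 control libraries came from cells carrying a wild-type U2AF1 knock-in, and the other 3 from cells with U2AF1 S34F. No treatment is named in the labels, which also do not say whether cells were clones or pools or whether replicates were separate cultures, so p-values measure only the spread between these libraries. Poly(A)+ RNA was sequenced, and each library gave 18074706 to 39279169 unique spliced reads, the shallowest being S34F replicate 2 and the deepest S34F replicate 3. Over the member exons the median support was 85.5 to 211 reads per library.

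U2AF1 is the small subunit of the U2AF heterodimer. Its zinc fingers read the AG that ends an intron while the large subunit binds the pyrimidine tract before it, and together they bring the U2 snRNP to the branch point. S34F lies in the first zinc finger and is a recurrent mutation of myelodysplastic syndromes and some carcinomas. It is known to shift which 3′ splice sites are favoured according to the base just before the AG, so that cassette exons with a disfavoured acceptor are skipped more and those with a favoured one are included more. The base before each AG, the genes around the exons, markers of the K562 line and the reading frame itself were not analysed here. Positions are 1-based, in hg19, the build named in the submitters' processing notes.

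Inclusion is the share of transcripts that carry the exon, estimated as 100 times I / (I + S), where I averages the reads of the upstream and the downstream inclusion junction and S counts the skipping junction. Most member exons were mainly included. The median wild-type inclusion was 84.6%, with the middle 50% of combinations between 17.8% and 96.2%. In all, 1489 combinations had a wild-type mean of 90% or more, 727 lay from 50% to below 90%, 566 from 10% to below 50%, and 685 below 10%. The shortest exon allowed by the rule, 33 nt, occurred in 37 combinations and the longest, 498 nt, in 3. Median length was 108 nt, or 36 codons if coding.

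The genotypes overlapped in the inclusion of the class as a whole. Median inclusion was 83.5%, 84.2% and 84.6% in wild-type replicates 1 to 3 and 84.7%, 80.8% and 82.6% in S34F replicates 1 to 3. Mean inclusion ran from 62.2% to 62.7% in wild type and from 61.7% to 63.3% in S34F. The median difference between the genotypes, S34F minus wild type, was 0.036 percentage points, beside -0.087 over all 19137 combinations.

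Individual exons did differ. Libraries of the same genotype resembled each other more than libraries of different genotype: over 523 combinations with at least 100 reads in every library and a wild-type mean of 5% to 95%, the median absolute difference of inclusion was 2.83 to 3.49 points between wild-type libraries, 2.47 to 3.01 between S34F libraries, and 4.16 to 5.07 across genotypes. Wild-type replicate 1 lay closer to S34F replicates 1, 2 and 3 (4.40, 4.16 and 4.30) than either other wild-type library did.

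Inclusion in S34F against wild type was tested with edgeR's quasi-likelihood test over all 19137 combinations, and a combination was called at a Benjamini-Hochberg adjusted p under 0.05 with a difference of at least 10 percentage points. Among the annotated frame-preserving exons 130 of 3467 combinations (3.75%) were called, 61 higher (1.76%) and 69 lower (1.99%) in S34F. They covered 126 exons. Of these exons, 19 had more than 1 combination, and only 4 of the 19 were called in all of theirs. Over all combinations tested the share called was 2.49%, with 0.92% higher and 1.57% lower. Annotated frame-shifting exons of the same length range, the nearest class for comparison, had 152 of 4860 called (3.13%), 57 higher (1.17%) and 95 lower (1.95%). Rises thus made up 46.9% of the calls in frame-preserving exons, 37.5% in frame-shifting exons and 36.9% over all combinations, shares that were compared without a test. The groups did not overlap in 1099 member combinations (31.7%) beside 29.4% of all combinations and 30.2% of frame-shifting ones, and an unadjusted p under 0.05 was reached by 829 (23.9%), beside 23.7%.

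**Figure D1:**
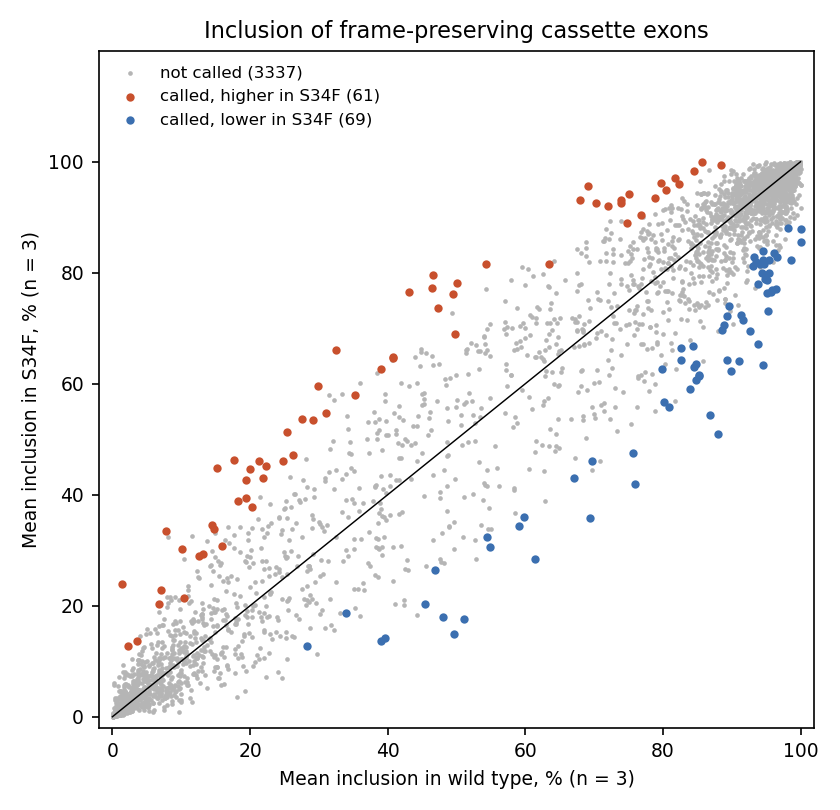
Mean inclusion in S34F (vertical axis, %) against wild type (horizontal axis, %) for all 3467 combinations, each mean over 3 libraries; the line marks equal inclusion. The 61 combinations called higher lie above the line at wild-type levels below 90% and the 69 called lower lie below it, mostly at high wild-type inclusion.

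The number of calls rested on single libraries. Without S34F replicate 3 it was 2, without S34F replicates 1 and 2 it was 25 and 29, and without wild-type replicates 1, 2 and 3 it was 256, 36 and 81. The count was 74 by DESeq2 and 0 by limma, which works on log2 odds and had 689 combinations under 0.05 before adjustment. The sizes of the differences moved less than the calls. Over the 130 combinations the median absolute difference was 20.6 points with all libraries and 20.3 without S34F replicate 3. There, 126 still differed by 10 points or more, 129 had an unadjusted edgeR p under 0.05 and 2 were still called. The 130 were chosen for large differences over these same libraries, so the sizes and unadjusted p-values are no independent check.

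Exons that gained inclusion are described first. The 12 largest rises, 1 combination per exon, ran from 26.4 to 33.6 points, with edgeR adjusted p-values from 0.00835 to 0.0289. An 87 nt exon (chr15:50776472-50776558, plus strand) was included at 47.5%, 49.2% and 32.7% in wild type against 78.4%, 76.8% and 74.6% in S34F. The S34F libraries sat close together and all above the highest wild-type library. Mean inclusion rose by 33.5 points, from 43.1% ± 9.0 to 76.6% ± 1.9 (SD, n = 3 in both; edgeR adjusted p = 0.00835, with a change in log2 odds of 2.05 ± 0.39 SE). Inclusion went from 1.72 to 3.36 RPM (reads scaled to 1e6 unique spliced reads of the library) and skipping from 2.15 to 1.02, so the skipped form had been the more frequent one in wild type and was the rarer one in S34F.

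A 66 nt exon (chr12:121840545-121840610, plus strand) had the largest rise of all. Its inclusion was 33.3%, 33.3% and 30.9% in wild type against 64.5%, 56.8% and 77.1% in S34F. The wild-type libraries agreed within 3 points while S34F replicate 3 stood above its group, and depth was low, from 27.5 to 70 reads per library. The difference of 33.6 points had an edgeR adjusted p of 0.0197 (log2 odds 2.13, SE 0.49).

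The 207 nt exon at 22330353 to 22330559 on the minus strand of chromosome 22 went from 53.6%, 41.2% and 44.8% to 82.4%, 72.8% and 83.8%. It rests on 29 to 99 reads per library. Each S34F library exceeded each wild-type library, and the means were 46.5% ± 6.4 and 79.7% ± 6.0 (edgeR adjusted p = 0.0140). By its upstream junction alone the exon rose by 23.6 points and by its downstream one by 28.9 (edgeR adjusted p = 0.108 and 0.0138).

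On chromosome 4 an 81 nt plus-strand exon, 20726431 to 20726511, was at 56.2%, 43.1% and 40.2% in wild type against 78.4%, 77.5% and 76.1% in S34F. A 111 nt exon (chr3:193343881-193343991, plus strand) was at 57.9%, 46.6% and 58.4% against 85.8%, 78.4% and 80.4%. Both exons were within 10 points of even usage in every wild-type library and above 75% in every S34F library. Their rises were 30.9 and 27.2 points (edgeR adjusted p = 0.0131 and 0.00960).

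Some exons were the minor form in wild type. A 57 nt exon (chr17:38191169-38191225, minus strand) was included at 18.8%, 9.31% and 17.5% in wild type against 39.9%, 33.5% and 60.8% in S34F. S34F replicate 3 was again the highest, and the skipping junction still carried more reads than the inclusion junctions in the other S34F libraries. Its log2 odds rose by 2.24 (SE 0.46, edgeR adjusted p = 0.0115), on 162.5 to 347 reads per library. A 114 nt exon (chr1:235344386-235344499, minus strand) showed 25.5%, 9.84% and 17.8% against 41.5%, 52.0% and 45.5%, on 25 to 71.5 reads.

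A 99 nt exon (chr1:144604410-144604508, plus strand) was at 32.4%, 30.9% and 26.2% in wild type against 60.4%, 61.9% and 56.2% in S34F. The groups were well apart, with an edgeR adjusted p of 0.0289. It is uncertain all the same, since 37.3% of the reads at its 3 junctions were multi-mapped and not counted, the highest share among the called combinations, whose median was 2.86%.

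On chromosome 9, an 87 nt exon at 135144790 to 135144876 (minus strand) had 62.7%, 38.5% and 49.1% in wild type against 82.5%, 75.4% and 76.4% in S34F. A 42 nt exon on the same strand, 32988081 to 32988122, had 52.9%, 47.2% and 41.7% against 67.8%, 75.8% and 77.4%. Wild-type replicate 1 was the highest of its group at both. The rises were 28.0 and 26.4 points (edgeR adjusted p = 0.0193 and 0.0215).

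The remaining pair of large rises were short exons. A 33 nt exon (chr12:32891198-32891230, plus strand), 11 codons if coding, went from 41.2%, 52.5% and 54.8% to 79.9%, 70.6% and 77.9% (edgeR adjusted p = 0.0146). A 45 nt exon (chr2:39216411-39216455, minus strand) was at 91.1%, 54.6% and 61.8% in wild type against 95.7%, 96.3% and 95% in S34F. Wild-type replicate 1 nearly reached the S34F level there, and the other wild-type libraries were far below (edgeR adjusted p = 0.0260). Its skipping junction had 2, 1 and 4 reads in S34F, so it reached the minimum of pooled reads only with the wild-type libraries. With multi-mapped reads added, the 45 nt exon was no longer called (23.3 points, edgeR adjusted p = 0.109).

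The 12 largest falls ran from 27.0 to 37.2 points, with edgeR adjusted p-values from 0.00299 to 0.0486. The smallest of these p-values belonged to a 90 nt exon (chr15:66787668-66787757, minus strand) which was included at 81.8%, 88.9% and 89.9% in wild type against 55.6%, 57.0% and 50.6% in S34F. All S34F libraries lay more than 20 points below the lowest wild-type library. Its mean inclusion fell by 32.5 points, from 86.9% ± 4.5 to 54.4% ± 3.4 (edgeR adjusted p = 0.00299, with a change in log2 odds of -2.46 ± 0.39 SE). Skipping reads went from 0.845 to 2.73 RPM while inclusion reads went from 5.41 to 3.28.

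A 153 nt exon (chr7:65439906-65440058, minus strand) was at 65.6%, 54.4% and 64.5% in wild type against 31.5%, 24.3% and 29.3% in S34F, on 152 to 365 reads. Inclusion was the major form in every wild-type library and the minor form in every S34F library. The fall was 33.1 points (edgeR adjusted p = 0.00626, with a change in log2 odds of -2.02 ± 0.36 SE).

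The same reversal of the major form was seen at a 129 nt exon (chr12:125267229-125267357, minus strand) with 68.2%, 78.6% and 81.1% in wild type against 48.5%, 33.7% and 43.7% in S34F (edgeR adjusted p = 0.00728). Here inclusion went from 7.78 to 2.35 RPM, and skipping reads only from 2.69 to 3.19. The mean sum of both forms was therefore lower in S34F, at 0.53 of its wild-type level. By library the sum was 14.6, 10.3 and 6.55 RPM in wild type against 6.37, 5.09 and 5.16 in S34F. Wild-type replicate 3 was thus close to the S34F libraries.

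An exon of 237 nt on the plus strand of chromosome 6, 3002284 to 3002520, was at 59.1%, 68.8% and 80.3% against 36.8%, 34.3% and 36.2%. The wild-type libraries were spread over 21 points, the S34F libraries over 3. A 171 nt exon (chr22:19175070-19175240, minus strand) was at 48.7%, 47.8% and 56.9% against 11.9%, 24.2% and 17.0%. Neither group overlapped the other at these exons, which fell by 33.6 and 33.5 points (edgeR adjusted p = 0.0289 and 0.0104). The junctions of the 237 nt exon were uneven. Its upstream junction alone gave -21.1 points and its downstream one -40.0 (edgeR adjusted p = 0.259 and 0.0136).

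In some exons the spread within a group was about as large as the change. The largest fall, 37.2 points, was in a 210 nt exon (chr14:74345799-74346008, plus strand) with 77.8%, 94.0% and 92.3% in wild type against 68.8%, 47.8% and 36.0% in S34F. S34F replicate 1 was only 9 points below wild-type replicate 1, and 23 to 37.5 reads per library supported it (edgeR adjusted p = 0.0205, with a change in log2 odds of -2.85 ± 0.66 SE). A 276 nt exon (chr1:181021371-181021646, plus strand) had 32.3%, 50.3% and 66.3% against 10.9%, 17.9% and 16.1% (edgeR adjusted p = 0.0146). Wild-type replicate 1 was the nearest to S34F at both. A 45 nt exon (chr5:176959157-176959201, minus strand) was at 29.0%, 54.1% and 61.2% against 22.5%, 10.4% and 21.1%, and with an edgeR adjusted p of 0.0486 it was the closest of the 24 exons to the threshold. Its upstream junction alone gave -34.1 points and its downstream one -13.4 (edgeR adjusted p = 0.0304 and 0.225).

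Among exons that were nearly always included in wild type, a 132 nt exon (chr3:3194140-3194271, minus strand) had 86.6%, 99.2% and 97.7% in wild type against 78.2%, 60.9% and 50.8% in S34F. Wild-type replicate 1 had 28 skipping reads where replicates 2 and 3 had 1 and 3. A 135 nt exon (chr19:30312903-30313037, plus strand) went from 88.4%, 90.3% and 94.4% to 56.9%, 67.5% and 67.8%. The groups were clearly apart at the latter (edgeR adjusted p = 0.0106 and 0.00720 for the pair).

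The list of large falls ends with an 87 nt exon (chr1:40029508-40029594, minus strand) and a 105 nt exon (chr15:43470805-43470909, plus strand). The former was at 71.5%, 76.5% and 78.8% in wild type against 54.9%, 39.9% and 48.0% in S34F, on 264 to 920.5 reads, the best covered of the 24 exons. The latter was at 90.2%, 86.8% and 92.6% against 53.3%, 58.3% and 75.2%. S34F replicate 3 kept the most inclusion at the latter and S34F replicate 1 at the former (edgeR adjusted p = 0.0129 for the chromosome 1 exon and 0.0346 for the chromosome 15 exon).

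**Figure D2:**
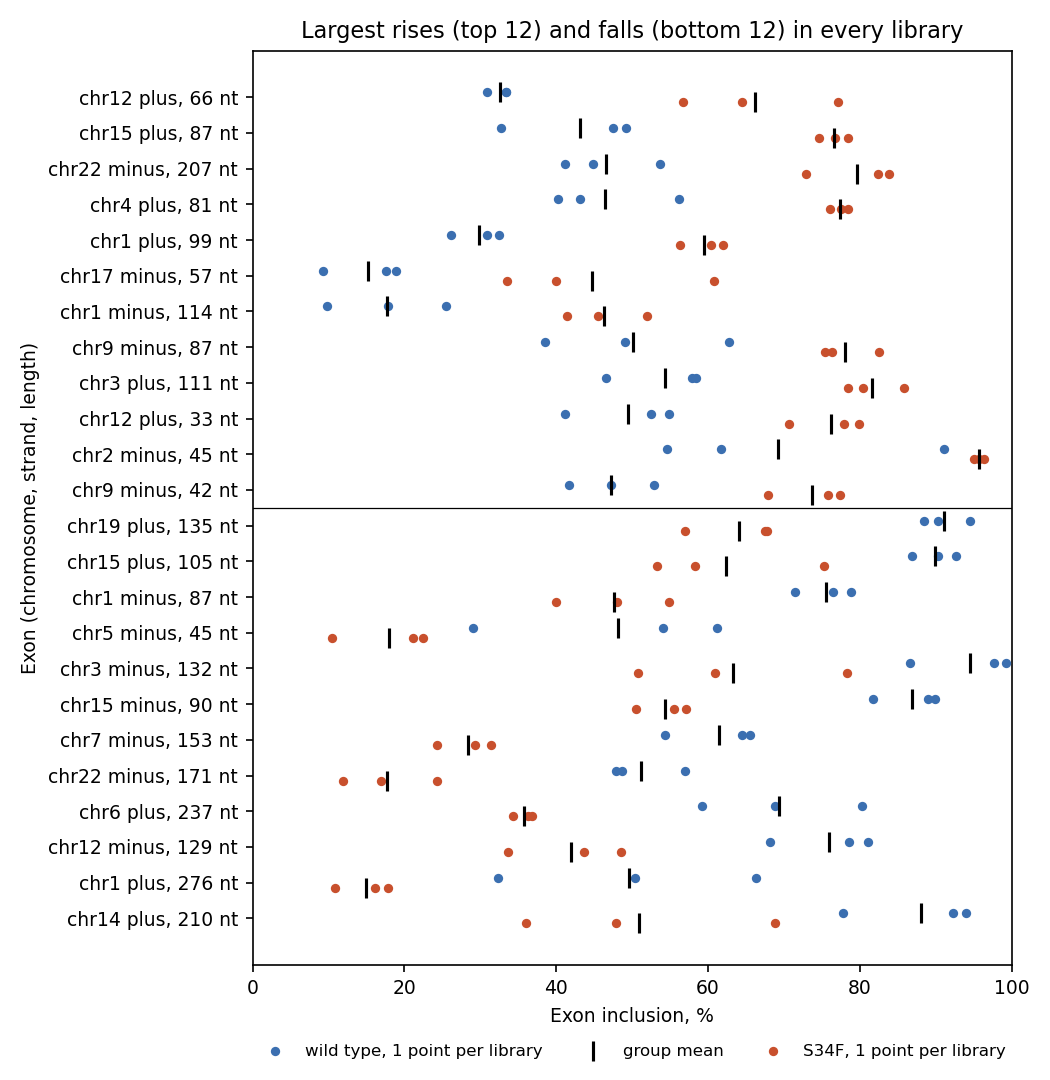
Inclusion (horizontal axis, %) of the 12 exons with the largest rises and the 12 with the largest falls, 1 row per exon; points are libraries (blue wild type, red S34F) and vertical marks are group means. In every row the 3 S34F points lie on one side of the 3 wild-type points, which was a condition for the choice of these exons.

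Calls of these 24 exons also turned on single libraries. All 24 were still called without wild-type replicate 1, 20 without wild-type replicate 3, 11 without wild-type replicate 2, 10 without S34F replicate 2 and 8 without S34F replicate 1. Without S34F replicate 3 none passed in edgeR (adjusted p from 0.0788 to 0.181), although the differences were still 21.5 to 35.3 points. These exons were chosen for large differences and separate groups in the same libraries, so the sizes are no independent check.

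Calls were also counted by wild-type level. The wild-type mean is part of the difference itself and sets the room to rise or fall, so these counts are a description. Below 10% a fall of 10 points cannot occur, and at 90% or more a rise of 10 points cannot, so that only 1 direction was open to the 6 and 30 calls there. From 10% to below 50%, 35 combinations rose and 8 fell, of 566. From 50% to below 90%, 20 rose and 31 fell, of 727, although the median difference over these 727 was 1.03 points. In these middle classes 7.60% and 7.02% of combinations were called. The major form changed, with group means on different sides of 50%, in 27 of the 130 called combinations: 16 exons and outer-site pairs went to mainly included and 11 to mainly skipped.

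Of the 6 combinations called from a wild-type mean below 10%, a 78 nt exon (chr22:22024588-22024665, plus strand) rose the most. It was included at 10.9%, 6.00% and 6.60% in wild type against 34%, 33.9% and 32.6% in S34F. The 3 S34F libraries agreed within 1.4 points and none was near wild type. Its rise of 25.7 points had a log2 odds of 2.57 (SE 0.36, edgeR adjusted p = 0.00177), and inclusion went from 1.5 to 7.57 RPM.

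A 39 nt exon (chr2:114490942-114490980, minus strand) was almost unused in wild type. It had 1.01%, 3.23% and 0% inclusion there and 23.9%, 23.8% and 24.2% in S34F, on 30 to 76.5 reads (edgeR adjusted p = 0.00862). Its inclusion junctions reached the minimum of pooled reads only through the S34F libraries, so its entry depended on the genotype where it was high. The other 4 rose by 10.2 to 15.9 points: a 231 nt exon on chromosome 2 (102480283 to 102480513), a 39 nt exon on chromosome 4 (83752090 to 83752128), a 66 nt exon on chromosome 1 (53723681 to 53723746) and a 60 nt exon on chromosome 11 (9161736 to 9161795).

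Falls from near-complete inclusion made up 30 of the 69 falls. They were 2.01% of the 1489 combinations with a wild-type mean of 90% or more, close to the 1.99% called lower over all 3467 members. In some of the 30, the skipping junction reached the minimum of pooled reads only with S34F reads. Their entry thus depended on the genotype where skipping was higher, and the count is a description. For example, a 111 nt exon (chr22:51016978-51017088, minus strand) had skipping reads only in S34F, with 3, 5 and 5. A 93 nt exon (chrX:19372609-19372701, plus strand) was at 92.8%, 98.0% and 96.6% in wild type against 77.9%, 79.3% and 73.5% in S34F. Skipping went from 0.782 to 5.34 RPM while inclusion was at 18.9 and 17.3, and the groups were more than 13 points apart (edgeR adjusted p = 0.00223). The smallest adjusted p of all members, 0.00148, belonged to a 165 nt exon (chr5:10254786-10254950, plus strand). It was at 96.9%, 98.6% and 99% against 87.6%, 89.5% and 87.3%, with 1343 to 3675.5 reads per library, and its fall of 10 points was just past the minimum.

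A 45 nt exon (chr3:100030677-100030721, plus strand) fell from 96.7%, 91.5% and 93.2% to 75.4%, 70.4% and 55.5%. A 171 nt exon (chr12:27067341-27067511, minus strand) fell from 90%, 94.8% and 93.2% to 69.9%, 72.9% and 65.6%. Skipping was rare in wild type at both, with 5 to 14 and 8 to 17 reads per library (edgeR adjusted p = 0.00345 and 0.00425).

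The exons that rose had a shorter median length than those that fell, a description with no test that holds within 31 to 500 nt only. It was 78 nt for the 61 rises, 120 nt for the 69 falls and 108 nt for all members. Of the 519 combinations with exons of 31 to 60 nt, 22 rose and 11 fell. The counts were 17 and 13 of 774 at 61 to 90 nt, 11 and 11 of 772 at 91 to 120 nt, and 3 and 11 of 551 at 121 to 150 nt. At 151 to 500 nt, 8 rose and 23 fell, of 851. Below the length limit of the class the direction was the other way: of 189 combinations with annotated exons under 31 nt of any frame, 11 (5.82%) were called and all were lower in S34F. Median wild-type inclusion was also lower for exons of 31 to 60 nt, at 54.0%, than for those of 151 to 500 nt, at 87.8%, and its part in this difference was not separated beyond one restriction: among combinations with a wild-type mean of 20% to 80%, 12 rose and 6 fell at 31 to 60 nt, 11 rose and 4 fell at 61 to 90 nt, 5 rose and 1 fell at 91 to 120 nt, 1 rose and 3 fell at 121 to 150 nt, and 7 rose and 6 fell at 151 to 500 nt.

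**Figure D3:**
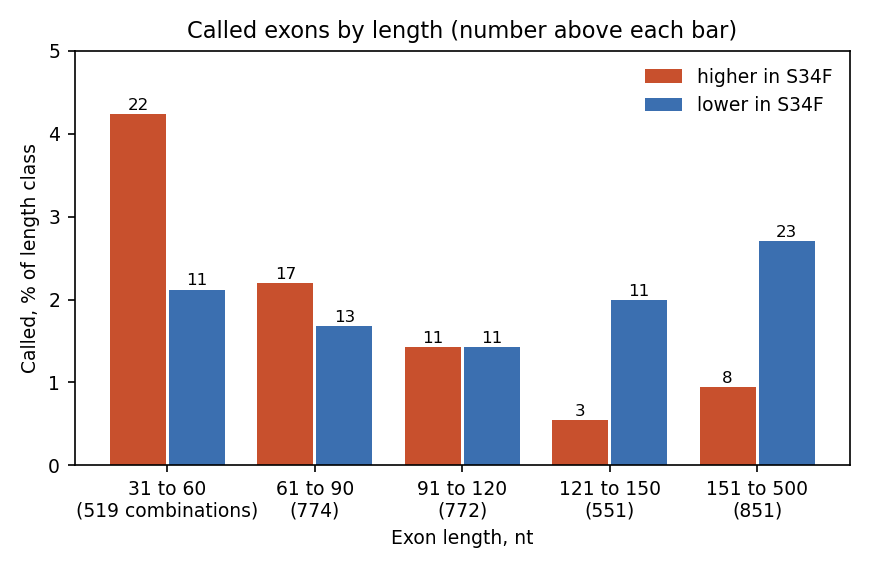
Share of each length class (vertical axis, % of its combinations; horizontal axis, exon length in nt) that was called higher (red) or lower (blue) in S34F, with the number of calls above each bar. Rises outnumber falls 22 to 11 at 31 to 60 nt and falls outnumber rises 23 to 8 at 151 to 500 nt.

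Introns beside the exons that rose had the longer medians. The median upstream intron was 2209 nt beside rises, 1387 nt beside falls and 1749 nt over all members, and the median downstream intron was 1878, 1027 and 1776 nt. These too were not tested.

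The junctions on the sides of the exon were also read one at a time. Both estimates use the same skipping reads and the calls were made on their mean, so some agreement is built in. In 129 of the 130 called combinations the upstream junction alone and the downstream junction alone differed in the same direction, beside 3004 of all 3467, and in 114 both differed by at least 10 points. The median gap between the 2 estimates was 2.81 points. The exception was the 150 nt form (chr1:192989437-192989586, minus strand) of an exon, where the upstream junction alone gave -0.24 points and the downstream junction alone 17.2. Its downstream junction is shared with a 75 nt form (chr1:192989437-192989511), which rose from 24.7%, 18.6% and 14.8% to 37.2%, 41.6% and 39.8% (edgeR adjusted p = 0.0229), and reads on that junction cannot be told apart between the forms. The largest gap was 33.8 points, at a 105 nt exon (chr20:35399276-35399380, minus strand) with -45.2 points by the upstream junction and -11.5 by the downstream one. This exon had an edgeR adjusted p of 0.0457. Its skipping junction had 6, 2 and 0 reads in wild type against 8, 16 and 20 in S34F. It thus reached the minimum of pooled reads only with the S34F libraries.

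**Figure D4:**
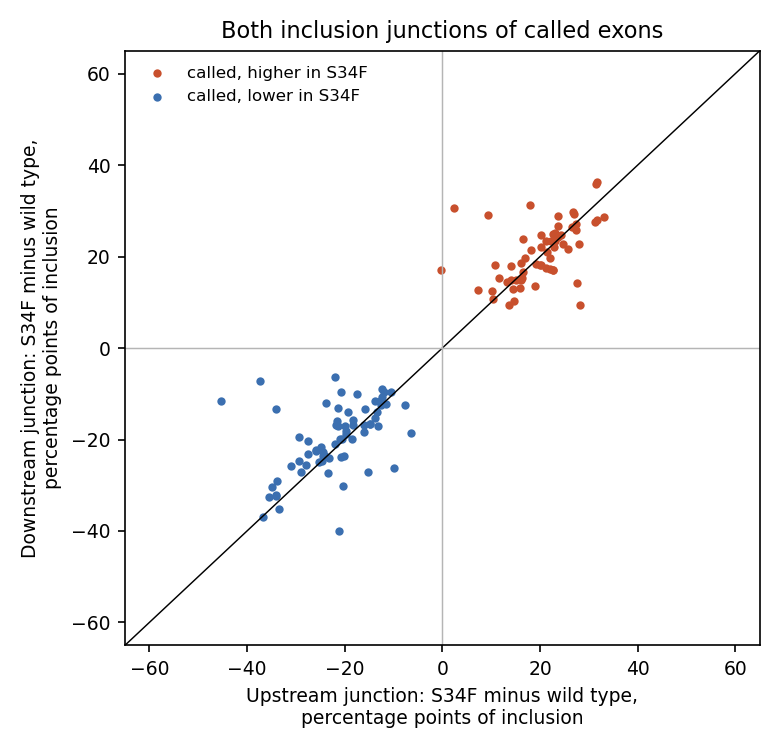
Change of inclusion, S34F minus wild type in percentage points, computed from the upstream inclusion junction alone (horizontal axis) and from the downstream one alone (vertical axis) for the 130 called combinations; the diagonal marks equal estimates. Most points lie near the diagonal, with a median gap of 2.81 points, and 1 rise lies at -0.24 on the upstream axis.

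Scaled to the unique spliced reads of each library, the group means of inclusion and skipping reads differed in opposite directions in 118 of the 130 called combinations and in 1705 of all 3467. A call on their ratio favours such a pattern, so the former count is a description of the called combinations. The sum of both forms, in RPM, was much the same in both genotypes, with a median S34F to wild-type ratio of 1.01 among called combinations (middle 50% from 0.87 to 1.21).

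Several called exons were neighbours. On the minus strand of chromosome 4, a 78 nt exon (83782784 to 83782861) and a 39 nt exon (83783687 to 83783725), 825 nt apart, are skipped by the same junction. The 78 nt exon was at 25.6%, 24.6% and 25.9% in wild type against 53.7%, 52.9% and 47.1% in S34F, and the 39 nt exon at 29.5%, 26.6% and 26.7% against 55.9%, 51.5% and 53.4%. Wild-type libraries were within 3 points of each other at both, and rises of 25.9 and 26.0 points brought each exon close to even usage (edgeR adjusted p = 0.0147 and 0.0151). As the skipping reads are the same, the rises are not independent of each other. The single junctions were also less even here: the 78 nt exon gained 9.35 points by its upstream and 29.0 by its downstream junction, and the 39 nt exon 28.2 and 9.46.

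On chromosome 12 the neighbours moved apart. The 33 nt exon described above lies 321 nt downstream of a 78 nt exon, 32890799 to 32890876, that was at 31.7%, 25.9% and 27.3% in wild type against 16%, 13.2% and 9.25% in S34F. The 78 nt exon thus fell by 15.5 points (edgeR adjusted p = 0.0383, with a change in log2 odds of -1.47 ± 0.40 SE) where the 33 nt exon rose by 26.6. They are skipped by different junctions. The upstream junction of the 78 nt exon alone gave -22.0 points and its downstream one alone -6.38.

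The 111 nt exon on chromosome 3 described above has a 54 nt neighbour 8254 nt upstream, 193335573 to 193335626, which rose as well, from 21.9%, 19.4% and 19.5% to 37.3%, 38.7% and 37.5% (edgeR adjusted p = 0.0432). A 111 nt exon (chr5:31515561-31515671, minus strand) and a 93 nt exon (chr5:31521230-31521322) share their skipping junction. They rose from 77.4%, 78.7% and 80.3% to 92.5%, 94.2% and 93.9%, and from 84.3%, 79.3% and 83.3% to 94.7%, 97.1% and 96.1% (edgeR adjusted p = 0.0256 and 0.0137).

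A pair of plus-strand exons on chromosome 2, the 231 nt exon named above and a 192 nt exon at 102487956 to 102488147, rose by 15.9 and 22.6 points. On the minus strand of chromosome 15, a 42 nt exon (91512309 to 91512350) and a 171 nt exon (91524729 to 91524899) fell by 24.2 and 18.9 points. With the 2 forms of the chromosome 1 exon, these are all 7 pairs of neighbouring called exons within 20000 nt on 1 strand, and in 6 of them both members moved the same way. In 3 of these 6 the members share their skipping junction, which favours a common direction, and of the 4 pairs with skipping junctions of their own 3 moved the same way.

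Precision followed depth. In the 1126 combinations whose shallowest library had 20 to below 50 reads, the median SD of inclusion was 4.26 points in wild type and 3.84 in S34F, and in the 767 with at least 200 reads it was 0.608 and 0.535. In the latter, 567 combinations (73.9%) differed between genotypes by less than 2 points, and 17 were called. Median wild-type inclusion was also higher in these deep combinations, at 94.5% against 76.2%.

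The 5 most-read exons with a wild-type mean of 20% to 80% were looked at whatever their change. A 63 nt exon (chr21:40551850-40551912, minus strand) was the 1 of them that was called: it rose from 79.7%, 74.8% and 75.8% to 89.0%, 89.8% and 92.1% (edgeR adjusted p = 0.0151, with a change in log2 odds of 1.52 ± 0.33 SE), on 620 to 2991 reads. It was no longer called without S34F replicate 1, 2 or 3, while the difference was 12.7 to 14.2 points. Values for a 36 nt exon (chr7:26237451-26237486, minus strand) were 21%, 23.0% and 21.2% in wild type against 23.8%, 24.0% and 25.7% in S34F. Here too the groups were apart, but by a mean of 2.74 points (edgeR adjusted p = 0.715).

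A 93 nt exon (chr12:53858544-53858636, plus strand) was at 65.8%, 64.7% and 59.7% against 67.5%, 65.8% and 66.6%. A 147 nt exon (chr4:83277690-83277836, minus strand) was at 45.5%, 45.8% and 48.2% against 48.4%, 44.1% and 37.9%. The groups overlapped in both, with mean differences of 3.23 and -3.04 points (edgeR adjusted p = 0.741 and 0.776).

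The last of the 5, a 111 nt exon (chrX:55050190-55050300, minus strand) was at 50.9%, 46.0% and 48.8% in wild type against 39.6%, 36.8% and 34.8% in S34F. The groups did not overlap and differed by -11.5 points, yet the exon was not called (edgeR adjusted p = 0.196, with a change in log2 odds of -0.68 ± 0.32 SE). Inclusion plus skipping came to 19.4, 42.3 and 18.1 RPM in wild type against 185, 67.6 and 58.2 in S34F, a ratio of means of 3.89 that was the highest among the 3467 combinations. S34F replicate 1 carried most of that excess. In bulk RNA a change in the share of cells that express a transcript cannot be told apart from a change in its level per cell.

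Some exons passed the test with changes far below 10 points, and 79 of the 209 combinations with an adjusted p under 0.05 missed the minimum difference. Over all combinations tested, 1051 had an adjusted p under 0.05 and 477 of these were called. The most-read exon of the class, 75 nt long (chr15:69745986-69746060, plus strand), was included at 98.6%, 99.2% and 98.7% in wild type against 96.8%, 97.5% and 96.9% in S34F (edgeR adjusted p = 0.0271). A rarely used 87 nt exon (chr13:45911602-45911688, minus strand) was at 0.184%, 0.351% and 0.237% against 0.0440%, 0.0505% and 0.0442% (edgeR adjusted p = 0.00626). Both differences exceeded the spread of the replicates while amounting to only -1.79 and -0.211 points. In log2 odds, the scale of the test, they were -1.41 and -2.39, as both exons lie near an end of the inclusion range.

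All junctions of the class had canonical splice site codes. The donor of the exon was of the GC type in 62 combinations, of which 2 were called, beside 130 of all 3467 members (3.75%). The 2 are given as single exons and not as a result about this donor type. One was a 111 nt exon (chr11:70267576-70267686, plus strand) which fell from 87.7%, 90.9% and 89.1% to 70.5%, 75.7% and 70.2% (edgeR adjusted p = 0.0170). The other, 396 nt long (chr15:75197005-75197400, minus strand), had skipping reads only in S34F, with 6, 4 and 11, which gave 88.2%, 88.7% and 86.8% inclusion (edgeR adjusted p = 0.0151). Its skipping junction thus passed the read minimum through S34F alone. The upstream junction alone gave -37.4 points for the latter and the downstream one alone -7.21.

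Values just inside and outside the thresholds of the rule were as follows. The 37 combinations with 33 nt exons had a median wild-type inclusion of 16.6% and a median difference of -0.21 points, and the 28 with exons of 30 nt, just outside, had 91% and -0.16. The 3 combinations of 498 nt had medians of 96.7% and -1.13, beside 92.2% and -8.28 in the 1 of 501 nt. With 20 to 21 reads in the shallowest library there were 78 combinations (median difference 0.19), and with 18.5 to 19.5 reads 76 (0.86). At 10 pooled reads on the weakest junction there were 109 (0.046), and at 9 there were 131 (-0.0027).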

How the data were processed

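Each of the 6 libraries had 1 deposited splice junction table of raw counts of uniquely mapped and multi-mapped reads per junction, with the annotation status and largest overhang; these were made by the authors with STAR on hg19, per the submitters' processing notes, with version, annotation and filters not given in the sources used here. Tables were joined on position (780566 junctions), with 0 where a junction was missing. Replicates were grouped by the labels.

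Cassette combinations were built from the unique counts as the report states. For each, the mean of the inclusion junctions, rounded, and the skipping count entered edgeR 4.0.16 (R 4.3.3; glmQLFit, robust, legacy mode) with an intercept per library, count type and its interaction with genotype. The interaction is the change in log2 odds. Library intercepts absorb scaling. P-values were adjusted over all 19137 combinations. The procedure was tested on simulated data. DESeq2 1.42.0, limma 3.58.1 (pseudocount 0.5), other filters, a replicate block and leaving out each library were alternatives. Reads lack molecular identifiers, so depth covers counting error only.

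Exons named in full were the 12 largest rises and 12 largest falls among called exons with separate groups, the 5 most-read with 20% to 80% wild-type inclusion, and those beside the thresholds. Single exons beyond that (from under 10% or over 90%, neighbours, GC donors, extremes) were chosen after their values were seen. The class of exons and all lists were chosen with earlier results of these data known. Gene lists and marker genes could not be matched to positions and were not used here.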

Additional observations from a re-analysis of the deposited data

How the results depend on the processing

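Against 130 called combinations, the count stayed within 1.5 times at 102 with edgeR's newer dispersion estimate, 94 with at least 50 reads in every library, 141 where the 20-read minimum applied to the library mean, 109 when multi-mapped reads were added, 130 with an overhang of at least 20 nt, 130 with motif codes 1 to 6, 120 and 105 from the upstream and downstream inclusion junction alone, and 145 with unrounded means, an alternative chosen after seeing the data. DESeq2 gave 74 and limma 0 (689 under 0.05 before adjustment); there were 56 with no low-count filter (240353 combinations tested), 70 with a minimum difference of 20 points and 209 with none. Leaving out each library in turn gave 2 to 256. The cause of these changes was not tested, except that the last filters change what is tested or called by construction. With the replicate block the count was 56, 23 higher and 33 lower. The labels do not say that numbers pair the libraries. The deviations of same-numbered libraries from their group means correlated at -0.17, 0.10 and -0.050 over 523 combinations. Such weak correlations cannot tell whether same-numbered libraries shared a culture or a day. No called exon among the largest changes and the most-read exons changed direction under any alternative that gave it a value. Most alternatives could not have shown such a change. Another fit or filter leaves the difference itself as it is, and where groups are separate, leaving out a library cannot reverse it. Only single junctions and added multi-mapped reads could have reversed a direction. Of the 24 exons with the largest changes, 21 were called with DESeq2, 0 with limma (adjusted p from 0.0567 to 0.123), 18 with the block, 17 with no low-count filter, 21 with multi-mapped reads, and 22 and 20 by single junctions.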

Other observations

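Multi-mapped reads at the 9652 junctions of these exons were not counted in the comparison. They made up 4.15%, 4.33% and 4.20% of the reads there in wild-type replicates 1 to 3 and 4.11%, 4.30% and 4.34% in S34F replicates 1 to 3, so that the groups overlapped.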
